A study of Mus musculus with 6 samples.

Results

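The genes described here make up the major histocompatibility complex (MHC) class II pathway of antigen presentation: H2-Aa, H2-Ab1, H2-Eb1, H2-DMa, H2-DMb1, Cd74 and Ciita. They were found on the array as the non-control probes whose RefSeq accession belongs to 1 of these 7 genes, which gave 8 probes, with 2 for H2-Ab1 and 1 for each other gene. All 7 were among the 22370 genes tested, out of 37074 on the array, and all 8 probes were well above background on all 6 arrays. Liver RNA of male L1-Tg mice was compared with that of male WT littermates, with 3 arrays per group and a pool of RNA from 2 or 3 mice on each array. L1-Tg mice are hemizygous for a human NPC1L1 transgene under the APOE promoter, which is active in hepatocytes. NPC1L1 takes cholesterol back up from bile, and mouse liver has little of its own. The transgenic line, of B6;D2 origin, had been backcrossed to C57BL/6J for at least 8 generations. Both groups were fed a control-fat diet (CFD), and the methods give an age of 6 to 12 weeks for the mice of the study, without an age for these pools. The arrays were made to describe the basal difference between the livers.

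Class II molecules hold peptides from engulfed proteins on the cell surface, where CD4+ T cells read them. The alpha and beta chains pair in the endoplasmic reticulum with the invariant chain, which fills the peptide groove and leads them to endosomes. There cathepsins cut the invariant chain down to a short fragment called CLIP, and the DM heterodimer swaps CLIP for peptide. Transcription depends on the coactivator Ciita, which joins RFX, CREB and NF-Y factors on the X and Y boxes of class II promoters. In the liver the pathway is known from dendritic cells, B cells and Kupffer cells, the resident macrophages, and less from hepatocytes. C57BL/6 mice carry the H2 b haplotype, which makes no H2-Ea chain, so that the H2-Eb1 product has no partner for a surface I-E molecule although its RNA is made.

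The promoter stretches of this gene family are shown because Ciita acts through the X and Y boxes, which 6 of the 8 class II genes with a window held as the pair of letters given here. They were read from RefSeq promoter windows (GRCm38.p6, 250 bases before to 50 after each start), which were given for 4 of the 7 genes and for H2-Oa, H2-Ob, H2-DMb2 and H2-Eb2. Capitals mark the core GNAAC of the X box and the Y box GATTGG, the binding motif of NF-Y, on the strand of the gene and with 20 to 40 bases between them. This pattern was looked for in the 250 bases before the start and was chosen after the sequences had been read.
H2-Aa, chr17:34287861-34287910, minus strand: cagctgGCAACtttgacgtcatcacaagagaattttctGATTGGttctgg
H2-Eb1, chr17:34305770-34305818, plus strand: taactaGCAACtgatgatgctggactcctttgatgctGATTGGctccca
H2-DMb1, chr17:34153091-34153140, plus strand: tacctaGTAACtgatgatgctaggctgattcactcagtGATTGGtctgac
H2-Oa, chr17:34092297-34092346, plus strand: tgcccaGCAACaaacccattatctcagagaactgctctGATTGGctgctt
H2-Ob, chr17:34238812-34238858, plus strand: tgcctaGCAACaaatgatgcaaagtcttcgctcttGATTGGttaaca
H2-Eb2, chr17:34325537-34325585, plus strand: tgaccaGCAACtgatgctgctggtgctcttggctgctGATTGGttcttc

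The spacing between the boxes was 27 bases in H2-Aa, H2-DMb1 and H2-Oa, 26 in H2-Eb1 and H2-Eb2 and 24 in H2-Ob. The X core began 81 bases before the start in H2-Aa, 91 in H2-Eb1 and 94 in H2-DMb1. Among all 32851 windows of the same length, 1.17% held the pair on either strand and 0.581% on the strand of the gene, while the Y box alone was in 16.1% on either strand. These shares count the whole window of 300 bases, whereas the class II genes were read only before the start. On the strand of the gene and before the start, the pair was in neither of the 2 windows given for H2-DMa nor in that of H2-DMb2. A match is a description of the letters and shows no binding.

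The arrays differed little as a whole. Between 53.1% and 59.2% of the spots of an array were well above background and 0 were saturated, and Pearson's r between arrays over the genes was 0.985 to 0.994 within groups and 0.979 to 0.992 between them. On the 1 slide used, row 1 held the WT pools and row 2 held the L1-Tg pools, and row and genotype cannot be told apart. Nothing in the sources used here ties pools to separate litters or days, so p-values measure the spread between these pools. Signals are given as log2 of the processed signal minus the 75th percentile of the array, so that 0 is the level of that percentile, and a difference is L1-Tg minus WT on this scale. Levels of different genes are not compared as amounts of RNA, because each probe has its own brightness.

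Class II RNA was present in every pool of both genotypes, and 0 of the 7 genes passed the adjusted threshold of 0.05 in limma. The background over all genes tested was 0.13%. Of the 7 differences 1 was above 0 and 6 were below it, from -0.30 in H2-Eb1 to 0.02 in H2-Aa, with a median of -0.11 beside -0.03 over all genes tested. Every one of the 7 confidence intervals held 0. What the genes shared was a spread between pools of 1 genotype, with WT pool 2 and L1-Tg pool 3 high and WT pool 1 low in most of them. In whole liver RNA, fewer cells of a type and less RNA per cell cannot be told apart.

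H2-Aa and H2-Ab1 encode the alpha and beta chains of the I-A molecule. The H2-Aa signal was -0.08, -0.07 and 0.77 in L1-Tg pools 1, 2 and 3, and -0.28, 0.56 and 0.27 in WT pools 1, 2 and 3. L1-Tg pool 3 was the highest and WT pool 1 the lowest, and the groups overlapped. Means ± SD over 3 pools were 0.21 ± 0.49 for L1-Tg and 0.18 ± 0.43 for WT. The difference of 0.02 (standard error 0.31) is a fold of 1.02, with a 95% interval from 0.607 to 1.70 (limma adjusted p = 0.987).

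For H2-Ab1 the signal was 3.60, 3.72 and 4.52 in L1-Tg pools 1 to 3 and 3.59, 4.68 and 3.90 in WT pools 1 to 3. The order of the pools was close to that of H2-Aa, except that WT pool 2 was above L1-Tg pool 3. Means were 3.95 ± 0.50 for L1-Tg and 4.05 ± 0.56 for WT (SD, n = 3 pools each), which is a difference of -0.11 ± 0.35 (standard error, adjusted p = 0.931 in limma). The second H2-Ab1 probe gave 3.62, 3.61 and 4.37 against 3.62, 4.90 and 3.80, and a difference of -0.24 (limma standard error 0.38, adjusted p over all probes 0.856). Both probes put WT pool 2 highest and L1-Tg pool 3 next.

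H2-Eb1, the beta chain of I-E, had the widest spread of the 7 genes. Its signal was 3.53, 3.39 and 4.03 in L1-Tg pools 1 to 3 and 3.50, 4.89 and 3.45 in WT pools 1 to 3. WT pool 2 stood at 192% of the WT mean, taken on the log scale, and the other WT pools at 73.4% and 71.0%. The difference was -0.30 (standard error 0.41), a fold of 0.813 with a 95% interval from 0.409 to 1.62 (limma adjusted p = 0.819).

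Cd74 encodes the invariant chain. Its signal was 2.61, 2.69 and 3.17 in L1-Tg pools 1 to 3 and 2.57, 3.64 and 2.91 in WT pools 1 to 3. Again WT pool 2 was highest, L1-Tg pool 3 next and WT pool 1 lowest. The means were 2.82 ± 0.30 and 3.04 ± 0.55 (SD, n = 3 pools each), and the difference was -0.22 (standard error 0.30, fold 0.860, 95% interval 0.524 to 1.41, limma adjusted p = 0.818).

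H2-DMa and H2-DMb1 encode the chains of the DM heterodimer, the peptide exchanger. H2-DMa was at -0.73, -0.87 and -0.58 in L1-Tg pools 1 to 3 and at -1.01, -0.45 and -0.61 in WT pools 1 to 3. It varied least of the 7 between pools, and its difference was -0.04 (standard error 0.17, fold 0.973, 95% interval 0.735 to 1.29, limma adjusted p = 0.950). H2-DMb1 was at 0.16, 0.11 and 0.75 in L1-Tg pools 1 to 3 and at 0.11, 1.07 and 0.33 in WT pools 1 to 3. Its order of pools was that of H2-DMa, and its difference was -0.16 (standard error 0.29, fold 0.892, 95% interval 0.546 to 1.46, limma adjusted p = 0.861).

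Ciita encodes the coactivator that class II transcription depends on. Its signal was -2.51, -2.96 and -2.84 in L1-Tg pools 1 to 3 and -2.81, -2.38 and -3.06 in WT pools 1 to 3. WT pool 2 was highest here too, but L1-Tg pool 1 came next and L1-Tg pool 3 lay in the middle of the order. The means were -2.77 ± 0.23 and -2.75 ± 0.35 (SD, n = 3 pools each), and the difference was -0.02 (standard error 0.21, fold 0.987, 95% interval 0.698 to 1.40, limma adjusted p = 0.985).

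**Figure D1:**
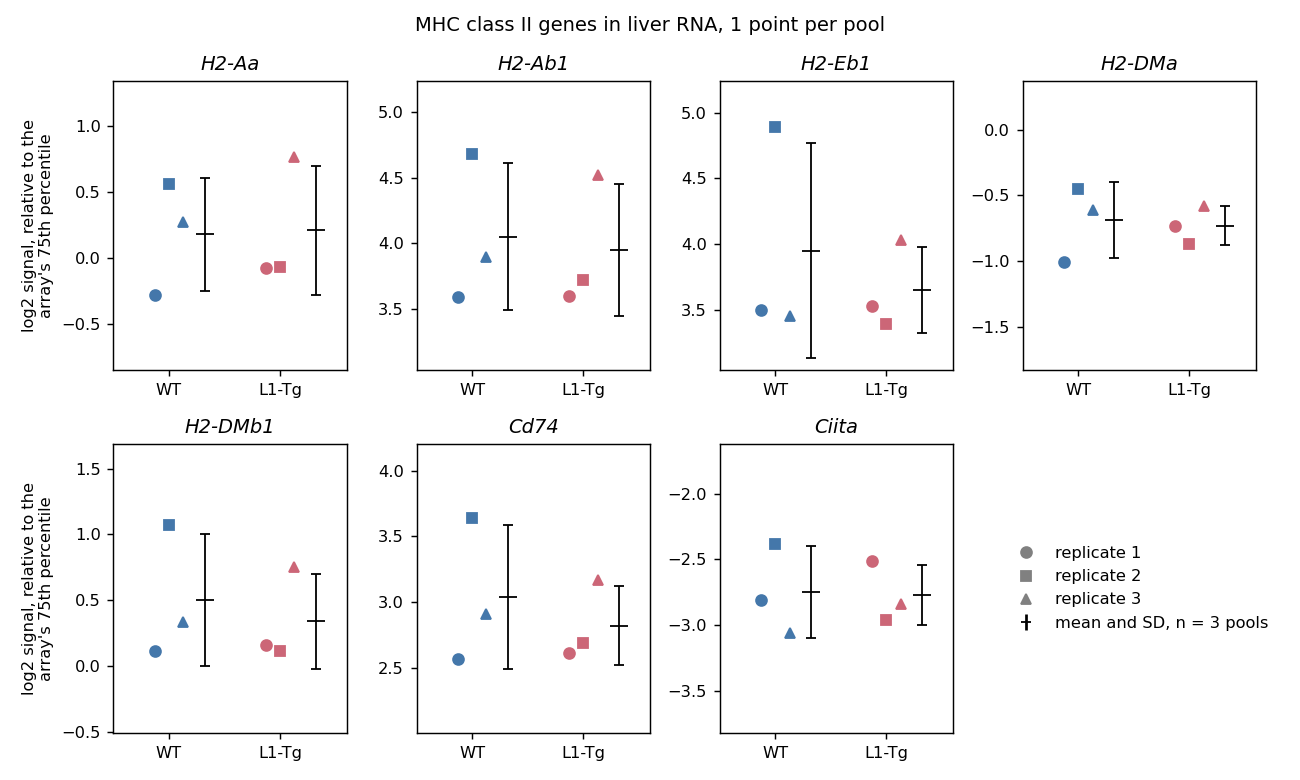
Log2 signal relative to the 75th percentile of the array (vertical axis, the same span of 2.2 in each panel) for each of the 7 class II genes in 3 WT and 3 L1-Tg pools. Symbols give the replicate number, which no label says pairs pools, and bars give the mean and SD. The groups overlap in every panel, and the square of WT pool 2 is the highest WT point in each.

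None of the other measures set the genotypes apart. Of the 7 genes 0 had an unadjusted limma p under 0.05, beside 8.84% of all genes tested. In 0 of 7 genes were the L1-Tg pools all above or all below the WT pools, beside 15.9% of all genes tested. The study's own measure, a difference index, divides the difference of the mean linear signals by the sum of the SDs and calls a gene past 0.7 in either direction. It passed 0 of the 7 genes, with 30.2% of all 37069 genes that had an index past that value, and lay between -0.33 in H2-Eb1 and 0.04 in H2-Aa. With 3 pools against 3, the smallest two-sided p that an exact permutation test can give is 0.10.

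The spread within a genotype was large for these genes. Their within-group SD, pooled over both genotypes, had a median of 0.44 on the log2 scale, whereas the median over all genes tested was 0.17 and the 90th percentile 0.45. H2-Eb1 stood at 0.62, above 95.6% of the genes tested, H2-Ab1 at 0.53 (93.5%) and H2-Aa at 0.46 (90.7%). Cd74 (89.7%) and H2-DMb1 (89.5%) were both at 0.44. The value was lower in Ciita, at 0.29 (77.0%), and in H2-DMa, at 0.23 (65.9%). In linear terms the highest WT pool exceeded the lowest 2.70-fold in H2-Eb1, 2.13-fold in H2-Ab1 and 2.10-fold in Cd74, and 1.47-fold in H2-DMa.

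**Figure D2:**
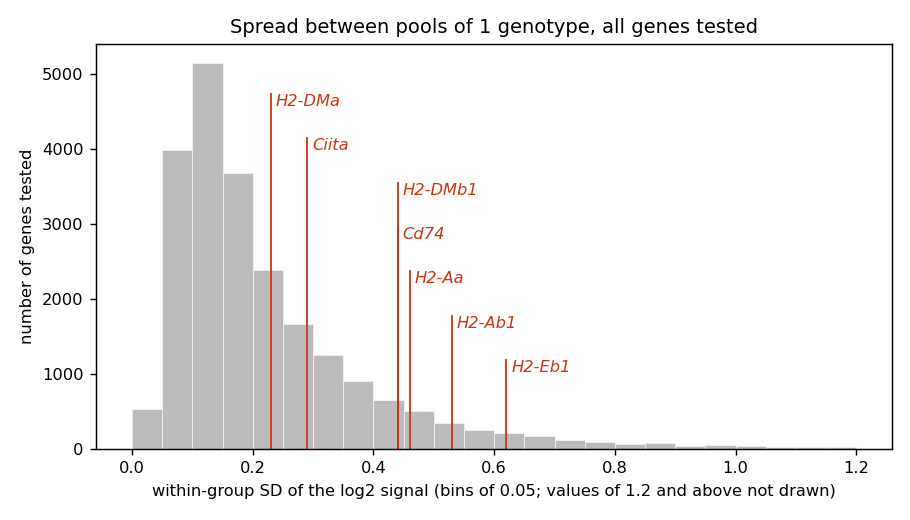
Histogram of the within-group SD of the log2 signal (horizontal axis, bins of 0.05) over the genes tested (vertical axis, number of genes), with a red line at each of the 7 class II genes; line heights have no meaning. H2-Aa, H2-Ab1, H2-Eb1, H2-DMb1 and Cd74 lie in the right tail, between 0.44 and 0.62, and H2-DMa and Ciita nearer to the bulk.

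The members moved together from pool to pool. Taken as deviations from the WT mean of each gene, their median was 0.57 in WT pool 2 and 0.13 in L1-Tg pool 3, and -0.16 in WT pool 3, -0.34 in L1-Tg pool 2, -0.35 in L1-Tg pool 1 and -0.45 in WT pool 1. The same median over all genes tested stayed between -0.04 and 0.02. WT pool 2 was the highest of the 6 pools for 6 of 7 genes, and WT pool 1 the lowest for 5. In H2-Ab1, H2-DMa, H2-DMb1 and Cd74 the first 3 places went to WT pool 2, L1-Tg pool 3 and WT pool 3, in that order.

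Over the 6 arrays, Pearson's r among H2-Aa, H2-Ab1, H2-Eb1, H2-DMb1 and Cd74 ran from 0.69 to 0.98 in 10 pairs, with the highest value for H2-DMb1 with H2-Ab1 and with Cd74. It was 0.36 to 0.88 in the 6 pairs with H2-DMa and 0.14 to 0.69 in the 6 pairs with Ciita. These coefficients describe 6 points that share the same arrays, with no test. Ciita, the coactivator, was thus the gene whose pool pattern was least like the others, with its lowest r, 0.14, to H2-Aa and its highest, 0.69, to H2-Eb1. Its probe was also dim, with raw signals of 38.2 to 66.3, beside 157 to 230 for H2-DMa. The part of a dim signal in these coefficients was not tested.

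**Figure D3:**
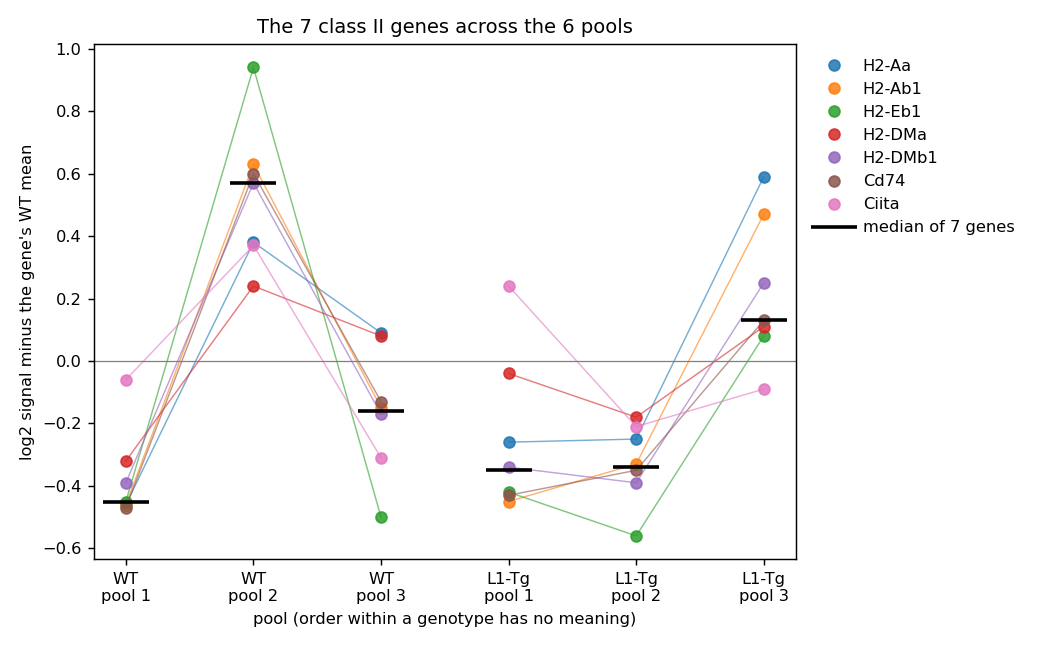
Log2 signal of each class II gene minus its own WT mean (vertical axis) in the 6 pools (horizontal axis), with lines joining the points of a gene within a genotype and black bars at the median of the 7 genes. The bar stands at 0.57 in WT pool 2 and at -0.45 in WT pool 1, and the widest difference between genotype means of a gene is -0.30.

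A single WT pool could set the sign of the differences. Without WT pool 2 all 7 differences were above 0, from 0.08 in H2-DMa and Cd74 to 0.21 in H2-Aa, and their median was 0.17. Without WT pool 1 all 7 were below 0, down to -0.52 in H2-Eb1, with a median of -0.34. No gene passed the limma threshold in either case, with adjusted p from 0.804 to 0.929 without WT pool 2 and from 0.631 to 0.961 without WT pool 1. With L1-Tg pool 3 left out the median was -0.37.

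When the genes nearest to the mean pattern of H2-Aa, H2-Ab1, H2-Eb1 and Cd74 were taken by Pearson's r over the 6 arrays, Rac1, a small GTPase of the actin cytoskeleton, came first (0.9862). It was followed by Bend4, Rdh19, Swsap1, Prepl, Hsd17b7, Glyr1, Ccdc186, Atp8b4 and Hacd3 (0.9456). With 6 points and 22370 genes this ranking is a description only, and none of the 10 is a gene of the lists used here. Nearest to Ciita were Hivep1 (0.9874), Abr, Ajm1, Acyp1 and Bhlhe41 (0.9658).

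Class II genes outside the 7 did not all share their pattern. H2-Oa and H2-Ob encode the DO heterodimer, which holds DM back and is known from B cells. The H2-Oa signal was -2.48, -2.08 and -2.45 in L1-Tg pools 1 to 3 and -3.33, -3.00 and -3.05 in WT pools 1 to 3. The lowest L1-Tg value exceeded the highest WT value, and the difference was 0.79 (standard error 0.15, 95% interval 0.42 to 1.15). It did not pass the threshold (limma adjusted p = 0.272) and was 0.28 after a normexp background correction, in which the groups still did not overlap. H2-Ob was at -2.40, -2.03 and -2.84 against -3.01, -2.60 and -2.76, in overlapping groups with a difference of 0.37 ± 0.22 (standard error, adjusted p = 0.639 in limma). Its second probe, well above background on 5 arrays, was at -2.54, -1.69 and -2.86 against -4.29, -3.03 and -2.46, with a difference of 0.90 (limma standard error 0.52, adjusted p over all probes 0.639), and the mean of both probes differed by 0.63. H2-DMb2 was well above background in L1-Tg pool 1 alone and H2-Eb2 on 0 arrays, so neither was tested. H2-DMb1 and H2-DMb2 are close in sequence, and how far a probe of one reads the other was not tested.

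Of 9 genes tested for the factors that act on class II promoters, 5 had a difference above 0 and 4 below it, with a median of 0.12, and 0 had an unadjusted limma p under 0.05. Irf8, a factor of macrophages and dendritic cells, had a difference of 0.22 ± 0.13 (standard error, adjusted p = 0.633 in limma). Nfyc, a subunit of NF-Y, was the gene of this list whose groups did not overlap. It was at 3.15, 3.11 and 3.23 in L1-Tg pools 1 to 3 and at 3.34, 3.27 and 3.31 in WT pools 1 to 3, with a difference of -0.14 ± 0.09 (standard error, adjusted p = 0.639 in limma). Rfx5, the DNA-binding subunit of RFX, was well above background on 2 arrays and was not tested.

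Interferon-gamma is the classical inducer of Ciita. Of 10 genes tested of its signal path 5 had a difference above 0 and 5 below, with a median of 0.05, and 0 passed the adjusted threshold. Jak1, a kinase of this path, was at 3.48, 3.49 and 3.55 in L1-Tg pools and at 3.70, 3.74 and 3.70 in WT pools, with a difference of -0.21 ± 0.08 (standard error, adjusted p = 0.549 in limma). It was the 1 gene of the list with an unadjusted p under 0.05. The receptor chains Ifngr1 and Ifngr2 differed by 0.24 and 0.26, with groups that did not overlap and limma adjusted p of 0.642 and 0.579. Ifng itself was well above background on 4 arrays. It was at -4.03, -4.27 and -4.13 in L1-Tg pools 1 to 3 and at -4.66, -3.36 and -5.28 in WT pools 1 to 3.

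Antigen processing in endosomes was represented by 8 genes, of which 7 had a difference above 0, with a median of 0.24 and 0 past the adjusted threshold. Ctsd, the protease cathepsin D, was at 5.91, 5.99 and 6.12 in L1-Tg pools and at 5.73, 5.60 and 5.84 in WT pools, which is a difference of 0.28 ± 0.11 (standard error, adjusted p = 0.548 in limma). Ctss, the cathepsin S that makes the last cuts in the invariant chain, was at 4.28, 4.06 and 4.35 against 3.12, 3.73 and 4.12, which is a difference of 0.58 ± 0.25 (standard error, adjusted p = 0.570 in limma). In this gene WT pool 3 was above L1-Tg pool 2, and WT pool 2 lay between the other WT pools. An unadjusted limma p under 0.05 was found for 1 gene of the list, Ctsd. Without WT pool 3 it was found for 6, beside 2830 of the 22557 genes tested in that setting, and the median of the list was 0.40. That median was 0.16 without WT pool 1 and 0.15 without WT pool 2.

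Turnover and costimulation were represented by 6 genes with a median difference of 0.36, which was 0.22 without WT pool 1 and 0.21 after normexp. Cd83, which keeps class II on the surface by opposing the ubiquitin ligase Marchf1, was at -0.13, -0.35 and -0.28 in L1-Tg pools and at -1.42, -1.24 and -0.50 in WT pools. The groups did not overlap, and the difference was 0.80 (limma standard error 0.24, adjusted p = 0.480). Cd86, a costimulatory ligand of CD28, was at -0.91, -1.02 and -0.72 against -1.57, -1.40 and -1.03, which is a difference of 0.45 ± 0.16 (standard error, adjusted p = 0.540 in limma). The ligase Marchf1 differed by -0.10 (standard error 0.21), and WT pool 2 was its highest pool at 2.66.

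The class I pathway presents peptides from inside the cell, and several of its genes lie between the class II genes on chromosome 17. All 9 class I genes tested had a difference above 0, with a median of 0.46 beside -0.11 in the 7 class II genes. Of the 9, 4 had an unadjusted limma p under 0.05, beside 8.84% of all genes tested, and 0 passed the adjusted threshold. The count with an unadjusted p under 0.05 ran from 0 to 7 over the alternatives. It was 7 with quantile normalization and with the array median, 0 without L1-Tg pool 3 and 1 without WT pool 1. The median of the list was 0.30 without WT pool 1. The difference between the lists was not tested. H2-K1, a class I heavy chain, was at 8.47, 8.08 and 8.77 in L1-Tg pools and at 7.71, 7.83 and 8.13 in WT pools, which is a difference of 0.55 ± 0.20 (standard error, adjusted p = 0.540 in limma). Psmb8, an immunoproteasome subunit, was at 3.30, 3.01 and 3.47 against 2.56, 2.97 and 2.89, which is a difference of 0.46 ± 0.17 (standard error, adjusted p = 0.536 in limma). Tap1, a chain of the peptide transporter, differed by 0.53 (standard error 0.21) and Tapbp, its partner tapasin, by 0.34 (standard error 0.10), with limma adjusted p of 0.555 and 0.480.

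In the order of RefSeq along the chromosome, H2-DMa and H2-DMb1 are followed by Psmb9, Tap1, Psmb8 and Tap2, and these by H2-Ob, H2-Ab1, H2-Aa and H2-Eb1. The 4 class I genes in the middle differed by 0.53, 0.53, 0.46 and 0.28. Of the 7 class II genes, those before them differed by -0.04 and -0.16 and those after by -0.11, 0.02 and -0.30. H2-Oa, at the head of the stretch, differed by 0.79 (limma adjusted p = 0.272), and H2-Ob, next to Tap2, by 0.37 (limma adjusted p = 0.639). Both were dim, at -2.03 or below, and H2-Oa differed by 0.28 after normexp. In the main setting the differences of the class II genes in the stretch were thus not all near 0. Psmb9 was at 3.33 in WT pool 2, above its other WT pools at 2.50 and 2.58, as the class II genes were.

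**Figure D4:**
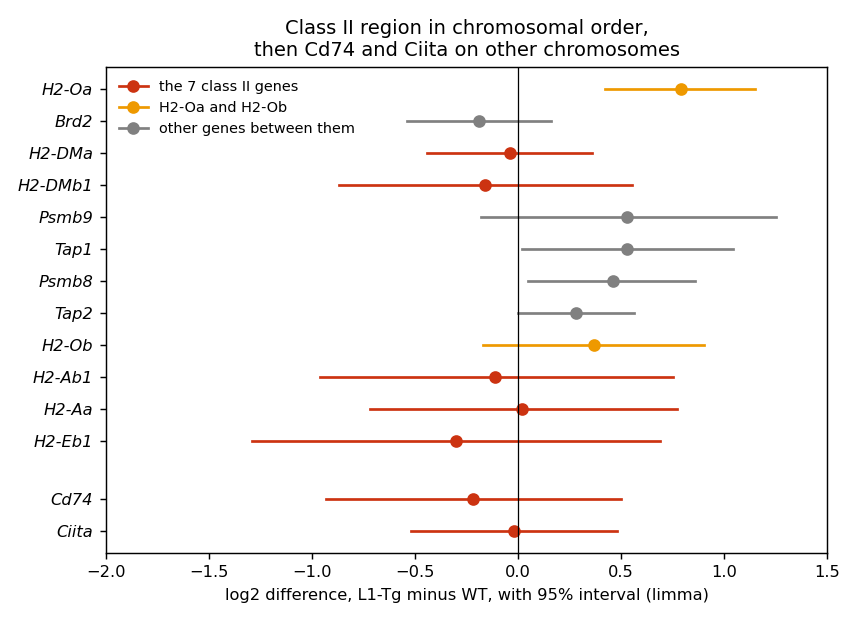
Log2 difference of L1-Tg minus WT with its 95% interval from limma (horizontal axis) for the genes tested in the class II region, in chromosomal order from the top, and for Cd74 and Ciita below. All 7 intervals of the class II genes (red) hold 0, the interval of H2-Oa (orange) does not, and the class I genes Psmb9, Tap1, Psmb8 and Tap2 (gray, with Brd2) have values from 0.28 to 0.53.

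Markers of the cells that could carry class II RNA were listed beside the members, and no list had a gene past the adjusted threshold in limma. Their part in the class II values was not tested. The liver identity of the samples was plain from Alb, which encodes albumin and was at 10.52 to 10.80 in L1-Tg pools and 10.65 to 10.81 in WT pools. Of 7 hepatocyte genes tested 6 had a difference below 0 with a median of -0.18, among them Apoa1, an apolipoprotein, at -0.49 (limma standard error 0.18, adjusted p = 0.533). The summed hepatocyte level, in multiples of the 75th percentile, was 3380 to 4050 in L1-Tg pools and 3750 to 4140 in WT pools. Such sums add probes of unlike brightness and are weighted to the brightest, here Alb with 43.5%, so they do not measure amounts of cells.

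For Kupffer cells 10 of 10 markers had a difference above 0, with a median of 0.33 and 0 with an unadjusted p under 0.05, and the summed level was 172 to 201 in L1-Tg pools and 108 to 200 in WT pools. Clec4f, a lectin of Kupffer cells, was at 4.51, 4.34 and 4.40 against 3.67, 3.84 and 4.49. Adgre1, which encodes F4/80, was at 1.82, 1.64 and 1.97 against 1.18, 1.28 and 2.08. Cd5l and C1qb differed by 0.63 and 0.49, with limma adjusted p of 0.561 and 0.582. The pool order of this list was not that of the class II genes, since its median deviation from the WT mean was -0.10 in WT pool 2 and 0.51 in WT pool 3. Without WT pool 3 the median was 0.62, and 8 of the 10 had an unadjusted limma p under 0.05 and 0 passed the adjusted threshold. Over all genes tested in that setting, 2830 of 22557 had an unadjusted p under 0.05. Without WT pool 1 the median was 0.15, with 8 of 10 above 0 and 0 with an unadjusted p under 0.05. Monocyte markers had 5 of 6 differences above 0, with a median of 0.32 and 0 with an unadjusted p under 0.05. The median was 0.13 without L1-Tg pool 3, with 3 of 6 above 0, and 0.15 without WT pool 1. Without WT pool 3 it was 0.55, and 3 had an unadjusted p under 0.05, beside the same 2830 of 22557 genes. Their summed level was 13.5 to 18.3 in L1-Tg pools and 14.1 to 25.5 in WT pools, of which Itgam, with a difference of -0.26, gave 82.2%, and Fcgr1 and Cd14 differed by 0.55 and 0.38 (limma adjusted p of 0.583 and 0.660).

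Dendritic cell markers had 4 of 8 differences above 0 and a median of 0.03. Itgax, which encodes CD11c, was at -1.75, -2.20 and -0.87 in L1-Tg pools and at -2.46, -1.57 and -2.08 in WT pools, with L1-Tg pool 3 highest and WT pool 2 next. Flt3, a growth factor receptor, was at -3.50, -3.63 and -2.95 against -3.21, -3.69 and -2.04. Ccr7, a receptor for homing to lymph nodes, differed by 0.53 ± 0.18 (standard error, adjusted p = 0.521 in limma) and was the 1 gene of the list with an unadjusted p under 0.05. The summed level was 251 to 275 in L1-Tg pools and 279 to 309 in WT pools, and 99.2% of it came from the single probe of Siglech, while Xcr1 was well above background on 0 arrays.

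B cell markers had 7 of 8 differences above 0, with a median of 0.45 and 0 with an unadjusted p under 0.05. The median was 0.21 without WT pool 1, 0.23 without L1-Tg pool 2 and 0.16 after normexp. The summed level was 6.26 to 7.11 in L1-Tg pools and 5.16 to 5.66 in WT pools. Cd79a, a chain of the B cell receptor, differed by 0.36 (limma adjusted p = 0.561), and Ms4a1, which encodes CD20, differed by 0.91 (limma adjusted p = 0.602). The median deviation of the list was 0.49 in L1-Tg pool 2, its highest, a pool in which the class II genes were low.

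T cell markers had 6 of 8 differences above 0 and a median of 0.13, and Cd3e, a chain of the T cell receptor complex, was at -0.30 (limma standard error 0.12, adjusted p = 0.557). Their median deviation was 0.53 in WT pool 2 and -0.38 in WT pool 1, which are also the highest and lowest pools of the class II genes, and 0.40 in L1-Tg pool 3. Cd3g, another chain of that complex, was at -2.97, -3.61 and -2.68 in L1-Tg pools and at -3.98, -2.12 and -3.42 in WT pools. Other markers of the list had another order. Cd3e was highest in WT pool 1, at 2.91, and lowest in L1-Tg pool 3, at 2.42. Cd8a, well above background on 3 arrays, was highest in WT pool 1, at -4.06. It was at -4.72 in WT pool 2, below its L1-Tg pools at -4.30, -4.17 and -4.18. The summed level was 82.1 to 97.9 in L1-Tg pools and 90.9 to 227 in WT pools, of which Cd4 gave 93.8%. Cd4 itself differed by -0.71 (limma standard error 0.33, adjusted p = 0.583) and was highest in WT pool 2, at 7.76. Its probe read 6.23 to 7.76, far above that of Cd3d in the same list, at -2.79 to -1.55. Whether the Cd4 probe reads Cd4 RNA of T cells alone was not tested. Without WT pool 2 the median difference of the list was 0.52.

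Sinusoidal endothelial markers had 6 of 9 differences above 0 with a median of 0.06, and a summed level of 110 to 112 in L1-Tg pools and 105 to 114 in WT pools. Clec4g and Fcgr2b differed by 0.14 and 0.21 (limma adjusted p of 0.656 and 0.659). Of 4 cholangiocyte markers 2 had a difference above 0 and the median was -0.14, with a summed level of 1.33 to 2.10 against 1.13 to 1.61. Spp1 and Krt19 differed by 0.52 and -0.38 (limma adjusted p of 0.583 and 0.762).

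**Figure D5:**
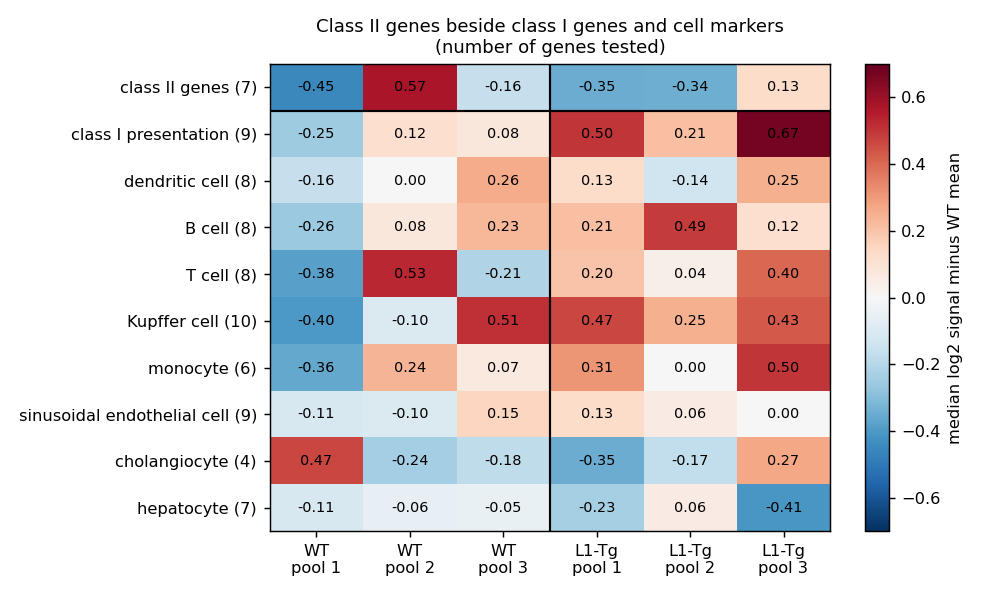
Median deviation from the WT mean, in log2 units, of the 7 class II genes (top row), the 9 class I genes and 8 lists of cell markers (rows, with the number of genes tested) in the 6 pools (columns). The class II row is at 0.57 in WT pool 2 and at -0.35 and -0.34 in L1-Tg pools 1 and 2. The class I row is above 0 in all L1-Tg pools and also in WT pools 2 and 3, at 0.12 and 0.08. The T cell row is at 0.53 in WT pool 2.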

How the data were processed

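The authors pooled liver RNA of 2 or 3 mice per array, labeled it with Cy3 and scanned a 1-color Agilent mouse array. The deposited processed signal from Agilent Feature Extraction 10.10.1.1 is an intensity on the linear scale, corrected for background and not scaled between arrays. The authors also deposited other marks of each spot, of 0 or 1, for signal well above background, saturation and uneven spots, and a matrix of values equal to the processed signals times 1 factor per array (2.46 to 2.98), whose origin is not given in the sources used here. A symbol was found for 27235 of the 28685 probes named by a RefSeq-type accession.

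Control spots were left out, non-uniform spots were missing values, spots of a probe were averaged, and log2 signals were set against the 75th percentile of the array. Probes had to be well above background on every array of 1 group or both, and the brightest of them stood for the gene. The genotypes were compared by limma (version 3.58.1, R 4.3.3, functions lmFit and eBayes), with two-sided p-values adjusted by Benjamini-Hochberg over 22370 genes and a threshold of 0.05. Files were read with jsonlite 2.0.0 and data.table (version 1.17.8), and the procedure was tested on simulated data. The difference index of the methods was computed on linear signals over the 75th percentile, with no filter on dim probes.

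Precision is limited by having 3 arrays per group.

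The members and the 14 lists of other genes were chosen with earlier results of these data known. The genes named were all members with every probe, the other class II genes, and in each list those with an unadjusted p under 0.05 or else the 2 with the smallest p. Defining markers (1 of which is not reported here), the 10 genes nearest to the mean of H2-Aa, H2-Ab1, H2-Eb1 and Cd74 and the 5 nearest to Ciita were named too. Outside this rule, Ctss, Marchf1, Ifng, Psmb9, Tap2, Ifngr1, Ifngr2, Cd3g, Cd8a, Brd2, Cd4, Itgam, Rfx5, Xcr1 and Siglech were chosen after their values were seen. Alternatives were other scalings, background corrections, filters, probe rules and tests, a replicate block, and each array left out.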

Additional observations from a re-analysis of the deposited data

How the results depend on the processing

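In limma, 0 of the 7 class II genes passed the adjusted threshold, had an unadjusted p under 0.05 or had groups that did not overlap under any of 17 alternatives. The smallest adjusted p of a member was 0.627, for H2-Eb1. Signs were not stable for values this near 0. The difference of H2-DMa was 0.07 with the array median as the scale, 0.01 with no scaling and 0.01 with the deposited matrix, and that of Ciita was 0.07 with quantile normalization, 0.09 with the array median, 0.04 with no scaling and 0.03 with the matrix. The array median moved the median of all genes from -0.03 to 0.08. With 1 array left out, the difference ranged from -0.26 to 0.21 in H2-Aa, -0.49 to 0.20 in H2-Ab1, -0.55 to 0.17 in H2-Eb1, -0.20 to 0.08 in H2-DMa, -0.37 to 0.12 in H2-DMb1, -0.45 to 0.08 in Cd74 and -0.17 to 0.17 in Ciita. The members past the index then numbered 0 to 1, the 1 being H2-DMa at -0.76 without WT replicate 1. In the main setting, with every array kept, 30.2% of all 37069 genes were past the index. The share of all genes past it without WT replicate 1 is not given here, so this call is not read as a difference in H2-DMa.

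Over all genes 29 passed, and 10 with no filter on dim probes, 0 with a test without moderated variances, which the methods state for pairs of groups in general and not for the arrays (where 1773 genes had an unadjusted p under 0.05) and 15 to 28 with 1 array left out. With the replicate block 11 passed, and it changed no call among the class II genes. Neither the labels nor the methods say that the numbers pair pools. Deviations of arrays with the same number correlated at -0.16, 0.11 and 0.02, and 2 of 6 arrays correlated best with their own number. Values from 6 arrays cannot exclude a pairing. After normexp, H2-Oa differed by 0.28 in place of 0.79, and the second probe of H2-Ob, which then stood for the gene, by 0.24 in place of 0.90. List medians near 0 changed sign with the setting, over all alternatives from -0.04 to 0.23 for class II transcription, -0.05 to 0.16 for interferon-gamma, -0.07 to 0.19 for dendritic cells, -0.06 to 0.52 for T cells and -0.26 to 0.10 for cholangiocytes, and 0 genes of these lists passed the adjusted threshold.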
